A study of Drosophila melanogaster with 3 samples.

Results

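The ecdysone response regulators examined here were 10 Drosophila melanogaster genes, EcR, usp, Eip74EF, Eip75B, Eip78C, br, ftz-f1, Hr3, Hr4 and Hr39, of 18277 annotated genes, 13968 of them protein-coding. They were chosen by name as regulators of the response to the hormone ecdysone, and all 10 were matched by symbol in the annotation. Summits of the deposited peaks were collected in each gene body extended by 2 kb on each side, and these windows summed to 601 kb, or 0.439% of the assembled bases. ChIP-seq had been carried out on whole embryos of both sexes from a fly line that stably expresses CG18764, which is a ZAD-type zinc-finger protein, with GFP at its C terminus, and the tagged protein was recovered with an antibody against GFP. The embryos were 0 to 16 h old, their chromatin was sheared by sonication with a size range of 200 to 800 bp, and the 3 biological replicates carried the same transgene and made up 1 group. No untagged or untreated embryos are among the samples, so nothing was compared between conditions.

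Ecdysone is the steroid hormone of insect moulting and metamorphosis, and a pulse of it also occurs in the middle of embryogenesis. The hormone binds a heterodimer of the nuclear receptors EcR and usp, which switches on a small set of early transcription factor genes, among them Eip74EF, Eip75B and br. Their products and those of Hr3, Hr4, Hr39 and ftz-f1 then set the timing of the later response, with Hr3 turning on ftz-f1 in the prepupa and Eip75B opposing Hr3.

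The optimal list, which is what the authors kept after thresholding on reproducibility, held 3754 peaks. The relaxed lists, 1 of the pooled replicates and 1 of each replicate, held 30000 peaks each, and these hold background as well as binding, so a relaxed summit is not a called site. Rank is given by the authors' signal value within a list, where 1 is the highest peak. The number of reads behind the lists is unknown. Replicate ranks describe how evenly a peak was recovered, but they are not independent of the optimal list, which was made from the same libraries. In whole embryos, strong binding in few cells and weak binding in many cells cannot be told apart.

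The sequences under the highest optimal summits show what the bound intervals of the response genes look like and which of the sought motifs they hold. Each is the 100 bp centred on a summit, given 5′ to 3′ on the plus strand of dm6 from the RefSeq copy of the assembly, with matched motif letters in capitals. The first 5 are the highest optimal summits of Hr4, Eip75B, br, Eip74EF and ftz-f1, and the last 2 are the next highest of Hr4, added after their values were seen because Hr4 held the most summits.
Hr4, rank 195, X:1951868-1951967: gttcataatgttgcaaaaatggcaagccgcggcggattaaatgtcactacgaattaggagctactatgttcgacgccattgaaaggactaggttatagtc
Eip75B, rank 1000, 3L:18029733-18029832: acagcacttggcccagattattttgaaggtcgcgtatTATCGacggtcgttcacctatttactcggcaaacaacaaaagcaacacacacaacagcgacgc
br, rank 2639, X:1618800-1618899: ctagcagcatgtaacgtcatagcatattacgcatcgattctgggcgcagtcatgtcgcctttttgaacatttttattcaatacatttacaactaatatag
Eip74EF, rank 2678, 3L:17567016-17567115: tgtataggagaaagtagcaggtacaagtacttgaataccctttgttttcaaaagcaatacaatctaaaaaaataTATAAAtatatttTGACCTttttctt
ftz-f1, rank 3548, 3L:18769473-18769572: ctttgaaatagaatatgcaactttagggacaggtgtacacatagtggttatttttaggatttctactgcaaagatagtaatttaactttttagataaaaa
Hr4, rank 297, X:1947705-1947804: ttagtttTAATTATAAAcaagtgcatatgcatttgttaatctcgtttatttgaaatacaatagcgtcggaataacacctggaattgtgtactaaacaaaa
Hr4, rank 396, X:1963902-1964001: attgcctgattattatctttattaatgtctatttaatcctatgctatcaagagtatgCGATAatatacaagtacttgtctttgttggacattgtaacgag
The Eip74EF interval held the nuclear receptor motif AGGTCA, on the minus strand, beside a TATAAA. The Eip75B interval and the Hr4 interval of rank 396 held CGATA, the core of the DNA replication-related element. In the Hr4 interval of rank 297 a homeodomain core TAATTA overlapped a TATAAA. The Hr4 interval of rank 195 and those of br and ftz-f1 held none of the motifs sought. All 7 lie in introns of the gene they are named for.

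CG18764 summits were found at 9 of the 10 regulators, against 31.6% of all protein-coding genes. Eip78C was the exception. These are long genes, and a longer window can hold more summits: of the 9 members with a body of at least 20 kb, 8 held an optimal summit, against 54.1% of the 1020 protein-coding genes of that length. The 28 summits were spread unevenly. Hr4 held 10, Eip75B 6, Hr3 4, Eip74EF and ftz-f1 2 each, and EcR, usp, br and Hr39 1 each.

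**Figure D1:**
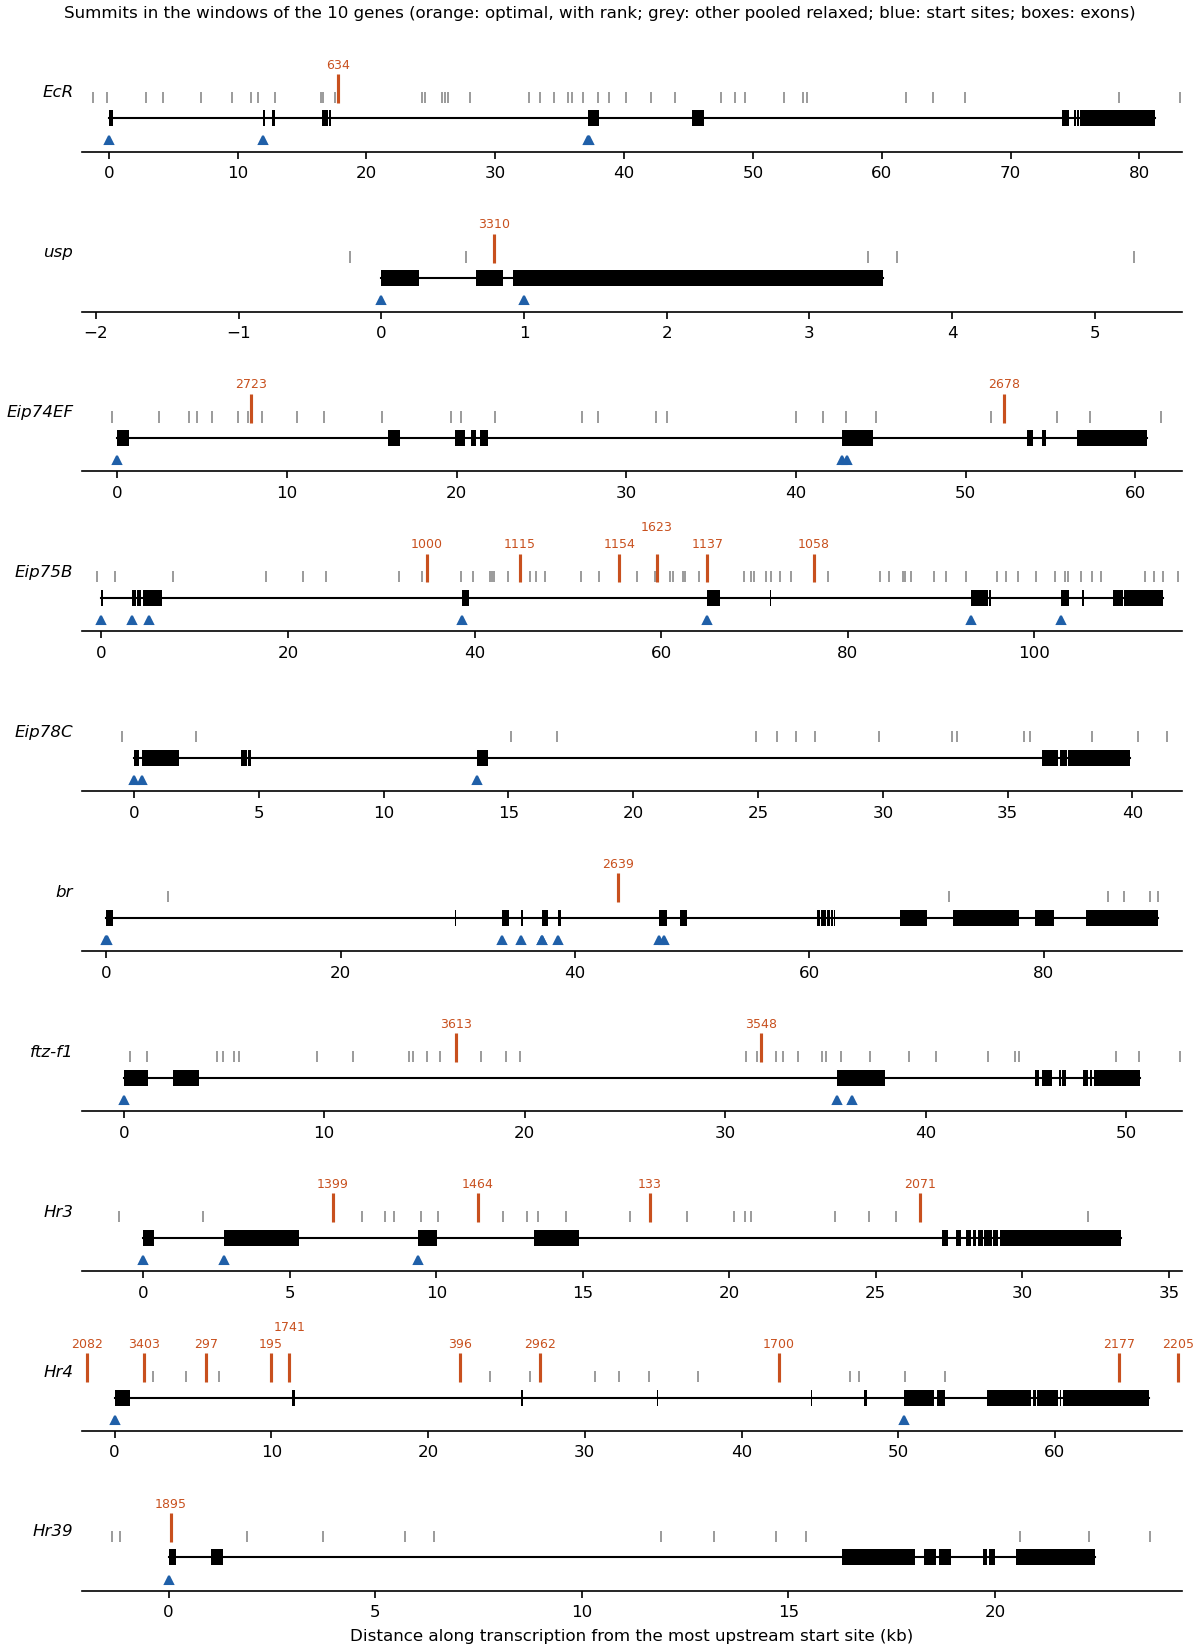
Summits in the 10 gene windows, each gene drawn along its direction of transcription, with distance in kb from its most upstream start site on the horizontal axis. Tall orange ticks are the 28 optimal summits with their ranks, short grey ticks the other pooled relaxed summits, blue triangles the annotated start sites and black boxes the exons; most orange ticks stand over introns, and Eip78C has none.

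The count of 9 depended on how many replicates had to carry a summit among their 3754 highest peaks. EcR, Eip75B, Hr3, Hr4 and Hr39 kept a summit whichever replicate was left out. Leaving out replicate 1, with a match required in both others, gave 6 genes, because Eip74EF, br and ftz-f1 had none. Leaving out replicate 2 gave 5, with usp lacking a summit as well, and leaving out replicate 3 gave 7, with usp and ftz-f1 lacking one. No share of all protein-coding genes is given for these counts, so they are not set against other genes. Over all 28 summits, 18 were among the highest peaks of all 3 replicates, or 64.3%, against 56.8% of the optimal list. Another 8 were there in 2 replicates and 2 in 1. In the whole relaxed lists, 27 of the 28 had a match within 100 bp in every replicate, or 96.4%, against 86.1% of the optimal list. Matched replicate summits lay a median of 17 bp from the optimal one and at most 100 bp away (n = 83).

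**Figure D2:**
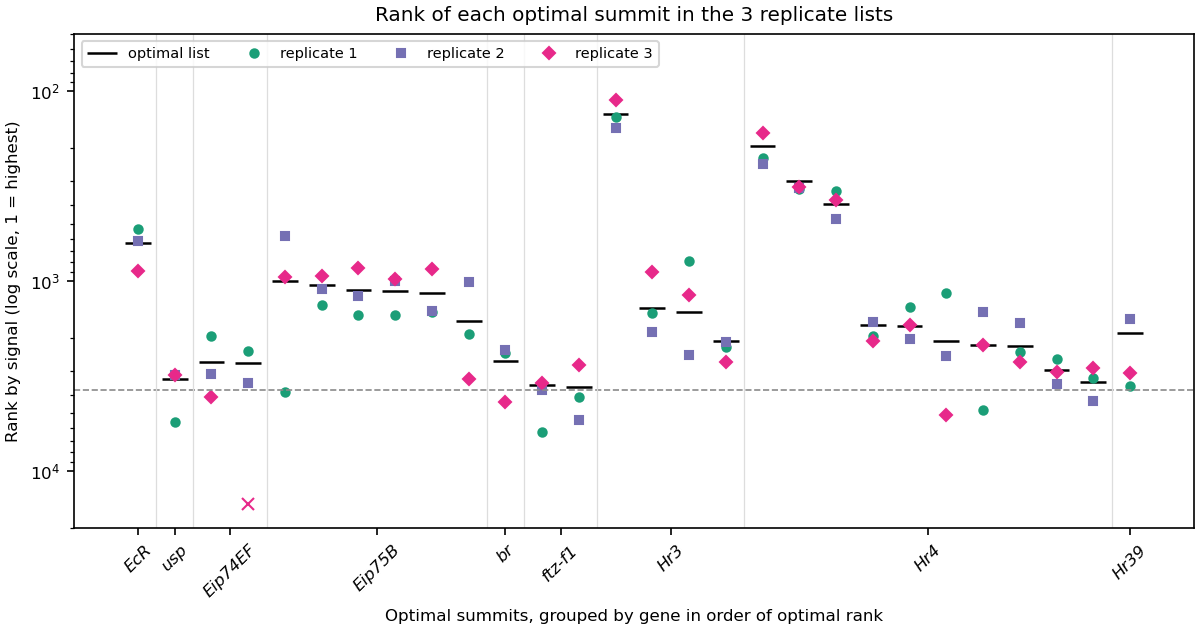
Rank by signal, on a log scale with 1 at the top, of each of the 28 optimal summits in the optimal list (bar) and in the lists of replicates 1 (circle), 2 (square) and 3 (diamond), grouped by gene. The dashed line marks rank 3754 and the cross a summit with no match in replicate 3; the highest summits of Hr3 and Hr4 keep close ranks in all 3 replicates, while those of usp and ftz-f1 straddle the line.

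Binding at the regulators lay in introns more often than at start sites. Of the 28 summits, 21 (75.0%) were in an intron and over 500 bp from any annotated transcription start site (TSS), against 61.2% of the 1267 optimal summits collected in the same way from the windows of genes of at least 20 kb and 32.3% of the optimal list. Another 6 (21.4%) were within 500 bp of a TSS of any gene, against 32.5% in the windows of long genes and 53.0% of the list, and 1 was exonic. Because summits were collected from gene bodies and their surroundings, intergenic ones are largely excluded by the choice of window, with 0 of 28 at the regulators, against 4.10% in the windows of long genes and 12.3% of the list. Long genes as a whole thus share part of the gap from the list. Without Hr4, 14 of the remaining 18 summits were intronic (77.8%). The distance to the nearest TSS had a median of 3540 bp for the 28 summits (quartiles 1210 and 7898 bp, range 61 to 16558 bp), against 1396 bp in the windows of long genes and 407 bp for the list (quartiles 112 and 2147 bp). Among intronic summits only, the medians were 5815 bp at the regulators and 2473 bp over the list. More than 5 kb from any TSS lay 12 summits (42.9%), against 25.3% in the windows of long genes and 13.3% of the list. Long introns leave room for such distances, and their dependence on intron length beyond the comparison with long genes was not tested. Relative to the nearest start of the gene itself, 18 summits were downstream and 10 upstream. No such count is given for other genes, so it is no result about the regulators.

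**Figure D3:**
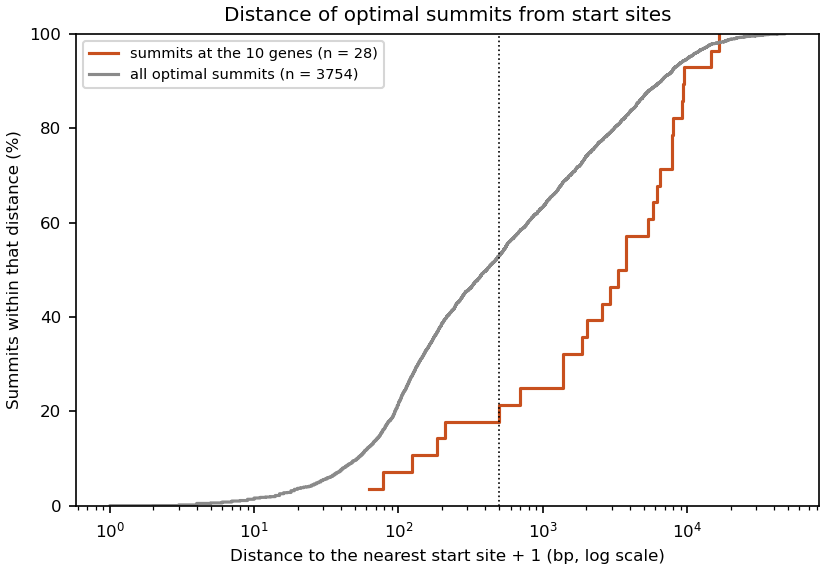
Cumulative share of optimal summits (%) against distance to the nearest start site plus 1 bp, on a log scale, for the 28 summits at the 10 genes (orange) and for all 3754 (grey). The dotted line marks 500 bp, which 21.4% of the orange and 53.0% of the grey summits fall within; the orange curve lies to the right of the grey one over most of its length.

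Optimal summits at the regulators' own start sites were counted by gene and by start. Of the 10 genes, 3 (usp, Eip75B and Hr39) had an optimal summit within 500 bp of one of their own TSS, against 17.9% of protein-coding genes. These 10 genes have 37 TSS positions, of which 3 had an optimal summit within 500 bp, against 13.8% of all 23694 TSS positions. A pooled relaxed summit was that near to 19 of the 37, against 44.4% of all positions. By replicate, 9, 18 and 16 of the 37 had a relaxed summit in replicates 1, 2 and 3. The share over all positions is not given for the replicate lists, so these counts cannot be called high or low. A pooled relaxed summit near at least 1 own TSS was present in 9 of 10 genes, against 49.1% of protein-coding genes. Several TSS per gene raise that count, and of the 19 TSS the 16 outside the optimal list ranked between 8095 (usp-RB) and 28095 (Eip75B-RG).

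The hormone receptor subunit EcR (FBgn0000546, 2R:6087873-6169087, minus strand, 81.2 kb, 4 TSS) had a single optimal summit at 6151292. It ranked 634 in the optimal list and 532, 620 and 888 in replicates 1, 2 and 3 (mean 680 ± 185, SD, n = 3). All 3 replicates hold it well inside their highest 3754, and the position is inside a 56758 bp intron, 5837 bp downstream of the nearest EcR start. A gene for tRNA-Asn starts 1384 bp from it. GC content was 46.0% in the central 100 bp and 17.5% in the windows centred 300 bp to either side. The EcR window held 41 pooled relaxed summits, the optimal one included, and the highest outside the optimal list ranked 4465. Its 18, 46 and 44 summits in the replicate lists show replicate 1 lowest. None of the 4 EcR starts had an optimal summit, and their pooled relaxed ranks began at 8203, for the start of EcR-RD and EcR-RE.

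The partner subunit usp (FBgn0003964, X:2038798-2042311, minus strand, 3.51 kb, 2 TSS) is the only short gene of the 10, and its summit was at a promoter. That summit, at 2041520, ranked 3310 in the optimal list and 5547, 3124 and 3124 in the replicates (mean 3932 ± 1399, SD, n = 3). Replicate 1 placed it outside its highest 3754. The position is 208 bp upstream of the start of usp-RA, in an untranslated exon of usp-RB, and within 500 bp of the divergent start of CG4313. It is also inside the annotated body of Actn, the alpha-actinin gene, so the signal cannot be assigned to usp alone. The start of usp-RB had only a relaxed summit, which ranked 8095 in the pooled list.

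Among the early genes, Eip75B carried the most binding. Eip75B (FBgn0000568, 3L:17950953-18064696, minus strand, 114 kb, 7 TSS) encodes the nuclear receptor E75, and its 6 optimal summits ranked 1000 to 1623. In order of rank they are at 18029783, 17988308, 18019807, 17999744, 18009161 and 18005171, with a closest spacing of 3990 bp over a span of 41475 bp. The highest summit ranked 3855, 579 and 951 in replicates 1, 2 and 3, which makes it the least even of the 27 summits found in all 3 replicates, with an SD of 1794 around a mean of 1795. The second was steadier, with replicate ranks of 1334, 1101 and 945. Replicate ranks of the next 3 stayed between 856 and 1514, and those of the last were 1900, 1021 and 3286. Of the 6, 5 lie within the longest annotated intron of the gene, 65240 bp, which also holds the starts of shorter transcripts.

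One Eip75B summit was at a start of the gene, 77 bp downstream of the TSS of Eip75B-RC at 17999821. It ranked 1137 in the optimal list and 1512, 1005 and 984 in the replicates (mean 1167 ± 299, SD, n = 3). All 3 replicates hold it among their highest peaks. The other 6 Eip75B starts had no optimal summit, and relaxed summits near them ranked no higher than 9872 in the pooled list and 10111 in any replicate.

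Eip74EF (FBgn0000567, 3L:17558672-17619325, minus strand, 60.7 kb, 3 TSS) encodes ETS-domain transcription factors and had 2 intronic summits that lie 44362 bp apart. The first, at 17567066 in a 9067 bp intron and 9254 bp from the nearest start, ranked 2678 in the optimal list and 1964, 3088 and 4081 in the replicates (mean 3044 ± 1059, SD, n = 3). The second, at 17611428 and 7897 bp downstream of a start, ranked 2723, with 2345 and 3469 in replicates 1 and 2 and no match in replicate 3. Both therefore fall short in replicate 3, and neither remained when replicate 1 or replicate 2 was left out. Their central GC content was the lowest among the members, with 26.0% at the first, against 59.0% in its flanking windows.

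The BTB zinc-finger gene br (FBgn0283451, X:1575132-1664869, plus strand, 89.7 kb, 9 TSS) had the fewest pooled relaxed summits per kb of the regulators. Its 1 optimal summit, at 1618850, ranked 2639, with replicate ranks of 2394, 2321 and 4337 (mean 3017 ± 1143, SD, n = 3). It was lost when replicate 1 or replicate 2 was left out. The site is in an intron of br, 3458 bp upstream of the nearest br start, and 695 bp upstream of a start of Mur2B, a gene that overlaps br on the other strand. It is also inside the annotated body of Mur2B, so the signal cannot be assigned to br alone. The window held 7 pooled relaxed summits, and 7, 5 and 3 in the replicates. No summit of any list lay within 500 bp of any of the 9 br starts. At 7.47 pooled relaxed summits per 100 kb, br was the only long member below the median of genes of at least 20 kb, which was 22.8.

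Eip78C (FBgn0004865, 3L:21226609-21266503, plus strand, 39.9 kb, 3 TSS), another nuclear receptor gene of the early class, had 0 optimal summits. Its highest pooled relaxed summit, at 21259378, ranked 4527, below the end of the optimal list. That summit ranked 7528 in replicate 1 and had no match in replicates 2 and 3. The best summits anywhere in the Eip78C window ranked 2674, 4347 and 5379 in replicates 1, 2 and 3, so replicate 1 alone placed any within its highest 3754, and it placed 2. The window held 16 pooled relaxed summits.

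Hr3 (FBgn0000448, 2R:10203995-10237348, minus strand, 33.4 kb, 3 TSS), the nuclear receptor that activates ftz-f1, held the highest summit of the regulators. That summit, at 10220056, ranked 133 in the optimal list and 138, 157 and 111 in the replicates (mean 135 ± 23.1, SD, n = 3). It is 7901 bp downstream of an Hr3 start, inside an intron of all 6 annotated Hr3 transcripts, where CG12912 and CG46321 also run. The other 3, at 10230886, 10225934 and 10210849, ranked 1399, 1464 and 2071, and all 4 are within the longest Hr3 intron of 26890 bp. Each of the 4 was among the highest peaks of every replicate. The one at 10210849 counts as a promoter summit only because the noncoding gene lncRNA:CR46322 starts 498 bp away. No optimal summit was within 500 bp of an Hr3 start.

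Hr4 (FBgn0264562, X:1941940-2007956, plus strand, 66.0 kb, 2 TSS), a nuclear receptor gene of the same hormone cascade, had 10 optimal summits. Only 6 protein-coding genes reached 10, which is 0.588% of those of at least 20 kb. The 3 highest are the intronic sites shown above. The summit at 1951918 ranked 195 in the optimal list and 225, 244 and 167 in the replicates (mean 212 ± 40.1, SD, n = 3). The summit at 1947755 ranked 297, with 328, 324 and 319 in the replicates, the most even of all the summits (SD 4.51). The summit at 1963952 ranked 396, with 335, 474 and 377. These 3 and the highest Hr3 summit were the only member summits among the first 500 optimal peaks, of which 110 were intronic. That is 4 of 28, against 500 of 3754 in the list. These shares are close, so the count is no result about the regulators.

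The other Hr4 summits ranked between 1700 and 3403. Of the 10, 7 were intronic, and 4 of these shared 1 intron of 10387 bp, with a closest spacing of 1180 bp. The summit at 2006035 was in an exon of 1 transcript and uneven, with replicate ranks of 4786, 1464 and 2172. The 2 outside the gene body were at promoters of neighbours. The one at 1940163 was 1777 bp upstream of Hr4 but 123 bp from the start of CG3857 and near that of CG3587, and the one at 2009773 was 184 bp from the start of lncRNA:CR45478 and near that of PIG-K, whose human counterpart is a subunit of the enzyme that attaches GPI anchors. Leaving out any 1 replicate gave 8 summits. Neither Hr4 start had an optimal summit, and the relaxed summit at the second start ranked 11452 in the pooled list.

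Hr39 (FBgn0261239, 2L:21237250-21259675, plus strand, 22.4 kb, 1 TSS), a nuclear receptor related to ftz-f1, had its 1 optimal summit at its promoter. The summit, at 21237311, is 61 bp downstream of the only annotated start and in an untranslated exon of all 4 transcripts. It ranked 1895 in the optimal list and 3595, 1583 and 3067 in the replicates (mean 2748 ± 1043, SD, n = 3). Replicate 1 also had a higher peak, ranked 1971, 95 bp upstream of that start. All 3 replicates therefore placed a summit near this start among their highest 3754.

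The competence factor gene ftz-f1 (FBgn0001078, 3L:18750607-18801309, minus strand, 50.7 kb, 3 TSS) had the 2 weakest summits of the regulators. Both are in an intron of 33674 bp, at 18769523 and 18784751, the second also within lncRNA:CR45939. They ranked 3548 and 3613 in the optimal list. The first ranked 6231, 3782 and 3447 in replicates 1, 2 and 3, and the second 4118, 5393 and 2793. Only replicate 3 had either among its highest 3754, and leaving out any 1 replicate gave 0 summits. The highest ftz-f1 summit outside the optimal list ranked 4114, so values inside and outside the authors' threshold lie close together at this gene.

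Summit density ranged from 0 at Eip78C to 14.3 optimal summits per 100 kb at Hr4. Together the 10 windows held 4.66 optimal summits per 100 kb, against 2.74 over all assembled bases and 2.28 in the windows of genes of at least 20 kb. Without Hr4 the density was 3.39. Over all protein-coding windows it was 4.18, near the value of the regulators. The density at Hr4 was exceeded by 1.27% of the long genes, and Hr3 had 10.7, exceeded by 6.08%. Eip75B had 5.10, exceeded by 19.3%. EcR, at 1.17, and br, at 1.07, were below the median of long genes, 1.51, with 52.0% and 52.5% of long genes denser. Only 54.1% of long genes held any optimal summit, so both were low among those that did. The short gene usp reached 13.3 from 1 summit.

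In the relaxed lists the order of the genes was different. The windows held 255 pooled relaxed summits, or 42.4 per 100 kb, against 21.9 over all assembled bases. Replicates 1, 2 and 3 held 165, 267 and 255 (mean 229 ± 55.7, SD, n = 3), with replicate 1 lowest, although among their 3754 highest peaks they held an even 28, 30 and 29. Of the long members, Hr3 had 64.3 pooled relaxed summits per 100 kb and ftz-f1 62.2, more than 96.2% and 95.7% of long genes. Hr4, with 32.8, exceeded 67.6%. The share of pooled relaxed summits that were optimal was 11.0% over the regulators, against 12.5% of the whole list, and 43.5% at Hr4, against 2.44% at EcR and 5.88% at ftz-f1. Thus nearly all relaxed summits of EcR and ftz-f1 fell below the optimal list, whereas at Hr4 10 of 23 were in it. Of the 255, 56 had a match in all 3 replicate lists (22.0%), against 6002 of the 30000 in the pooled list, and 27 had none in any.

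**Figure D4:**
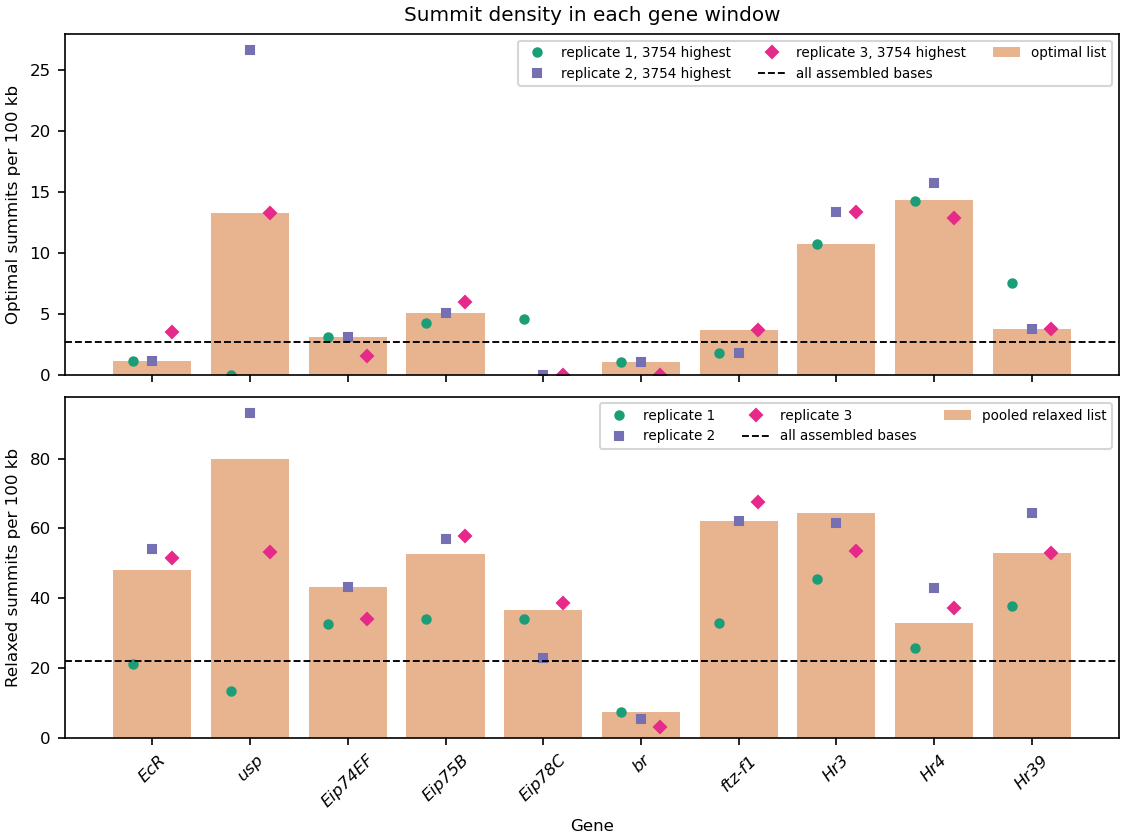
Summits per 100 kb in each gene window: optimal list (bars, upper panel) with the 3754 highest peaks of each replicate (points), and pooled relaxed list (bars, lower panel) with the relaxed list of each replicate (points). Dashed lines give the density over all assembled bases, 2.74 and 21.9; in the upper panel Hr4, usp and Hr3 stand highest, and in the lower panel br is the only gene under the line.

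The ranks of the 28 summits covered most of the optimal list. Their median rank was 1720, against 1878 for the list, and 15 were among its 1877 highest peaks. The coefficient of variation of the rank over the 3 replicates had a median of 27.2% and ran from 1.39% to 99.9% for the 27 summits found in all of them.

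Base composition was lower in GC at the summit centres than beside them on average, at the regulators and over the list. GC content was 37.0% ± 9.47 (SD, n = 28) in the central 100 bp and 44.9% ± 12.3 in the flanking windows, against 33.8% ± 8.90 and 43.7% for all optimal summits, and the intronic summits of the list averaged 32.5% at the centre. The centre was lower than the flanks at 18 of 28 (64.3%), against 77.5% of the list. The EcR summit, the 3 highest Eip75B summits and the Hr39 promoter summit were among those with a GC-richer centre.

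Letter matches for the hormone receptor or its downstream factors were few, at the regulators and over the list. The sequence was searched on both strands in the central 100 bp, and a match is a description of the letters and not evidence of a site. The receptor motif AGGTCA was found at 1 of 28 summits (3.57%), that of Eip74EF shown above, against 1.92% of all 3754. Paired copies of it were absent from all 28, both the inverted repeat with spacer 1 read by EcR and usp, which was also at 0 of 3754, and direct repeats with spacers of 0 to 5. The extended forms TAGGTCA, of the kind read by Hr3 and Eip75B, and TCAAGGTCA, of the kind read by ftz-f1 and Hr39, were at 0 of 28, against 0.4% and 0 of 3754. Only exact letters were sought. Each paired form, like TCAAGGTCA, was at 0 or 1 of 3754, so their absence from 28 summits is no result about the regulators. The ETS core CCGGAA, read by Eip74EF, was at 1 of 28, in Hr4, against 1.94%. In the central 200 bp AGGTCA was again at 1 of 28 (3.57%), against 3.86% of the list, so its share is no result about the regulators.

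General motifs had shares that were near or below those of the list in the central 100 bp. In the central 200 bp the shares of GAGAG and of the ETS core CCGGAA were above those of the list. These small counts changed with the window and are no result about the regulators. TATAAA was at 5 of 28 (17.9%), against 21.6% of the list, and CGATA at 3 (10.7%), against 17.3%. TAATTA was at 3 (10.7%), against 9.91%. GAGAG, read by GAGA factor, was at 1 of 28, against 9.38%. In the central 200 bp GAGAG was at 8 summits (28.6%), against 21.5% of the list. The same count held there for CGATA, against 30.7%, and for TATAAA, against 36.4%. In that window TAATTA was at 5 (17.9%), against 17.1%, and CCGGAA at 2 (7.14%), against 3.84%. The full element TATCGATA and the Zelda site CAGGTAG were at 0 of 28, against 2.21% and 0.506%.

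Beyond the 10 regulators, optimal summits were most frequent among the receptor cofactors, by count and with no test, of the other gene lists of the hormone pathway. Of 60 further genes in 7 lists, 58 were matched in the annotation. Among receptor cofactors, 5 of 6 had an optimal summit and 3 of 6 at the promoter, against 31.6% and 17.9% of protein-coding genes. These included bon, a TIF1 homologue, with a promoter summit of rank 104 and replicate ranks of 90, 155 and 92, and the coactivator gene tai, with a promoter summit of rank 997 and replicate ranks of 725, 1102 and 1304. The histone demethylase gene Utx had one of rank 3556, with replicate ranks of 4662, 5174 and 2339, so that only replicate 3 held it among its highest 3754. Smr, which encodes a corepressor, had 4 optimal summits, the highest intronic and of rank 492. The 1 summit in the window of trr lay outside the gene body, within 500 bp of a start of another gene. Both tai and Smr are longer than 20 kb, and 54.1% of protein-coding genes of at least that length had an optimal summit.

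Genes of hormone synthesis stood at the other end. Of 8 matched, 1 had an optimal summit in its window and 0 had one at the promoter, against 31.6% and 17.9% of protein-coding genes. That 1 was shd, which encodes the last hydroxylase of the pathway. The shd summit lay outside the gene body, within 500 bp of a start of another gene. Of 2 transcription factor genes of the synthesis pathway, mld had a promoter summit of rank 3625, with uneven replicate ranks of 2182, 11642 and 3508. Of 4 genes for import, export and turnover, the importer Oatp74D and the ABC transporter E23 had optimal summits in their windows. The Oatp74D summit lay outside the gene body, in an intron of another gene. E23 held 4, and that at its promoter ranked 172, with replicate ranks of 187, 217 and 137. Of the 8 synthesis genes only nvd and spok reach 20 kb, and a shorter window can hold fewer summits.

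The other lists held optimal summits at some genes each. Over all protein-coding genes the shares were 31.6% with an optimal summit and 17.9% with one at the promoter. Of 6 other response regulators, 1 (vri) had optimal summits, one of them at its promoter with rank 2709, and Eip93F, Kr-h1, Blimp-1, crol and Hr38 had 0. Of 20 other response genes, 7 had an optimal summit and 3 at the promoter. These 3 were Ldh, which encodes lactate dehydrogenase, of rank 433, the cell death gene hid of rank 860, and Eip63F-1 of rank 1678. Among the 7, the summit of Dronc lay outside the gene body, within 500 bp of a start of another gene. The 1 summit of Ddc was intergenic and outside the gene body. It ranked 8696, 2935 and 4680 in replicates 1, 2 and 3. Of 13 other nuclear receptor genes, 6 had an optimal summit, never more than 1, and 5 had it at the promoter. Those 5 were Hr96 (rank 381), Hnf4 (1236), ERR (1347), eg (2203) and Hr78 (2238). The summit of Hr51 was intergenic and outside the gene body. Hr96 ranked 377 and 432 in replicates 1 and 3 and had no match in replicate 2, and Hr78 ranked 2960, 1229 and 16728 in replicates 1, 2 and 3. Those of Hnf4, ERR and eg were among the highest 3754 of every replicate. In comparison, 3 of the 7 nuclear receptor genes with optimal summits among the regulators had one at a promoter of their own. The 2 sets differ in length, which was not accounted for. Of those 7 only usp is shorter than 20 kb, whereas of the 6 other receptor genes with a summit only Hnf4 reaches 20 kb.

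Hr3, the regulator with the highest summit, was compared with 7793 genes by the best rank in each of the 3 replicates. The most similar were CG12912 and CG46321, at a distance of 0 in log10 rank, because they overlap Hr3 and share its summit. The next was CG13928, at 0.0557, with best ranks of 136, 140 and 105 and its summit at the promoter. The likeness therefore covered rank only and not the position in the gene.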

How the data were processed

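CG18764-GFP ChIP-seq peak lists of 3 biological replicates were used. The authors deposited narrowPeak lists on dm6 and dm3, and only dm6 was used here. Per the labels and file listing deposited with them, a relaxed list of peaks and background came from each replicate and from the pooled replicates, an optimal list followed thresholding, and 1 control dataset was shared. The deposited signal is a score with no stated scale, the authors' own value, and only ranked peaks within a list. The deposited summit offset placed each summit. The optimal list was identical to the 3754 highest pooled peaks. Not given in the sources used here are aligner, caller, versions and thresholds; depth is unknown, so no interval is given.

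Genes came from Ensembl release 115 (23694 TSS positions) and sequence from assembly release 6. A summit matched a replicate peak within 100 bp. A promoter summit lay within 500 bp of a TSS. Python 3.11.15, numpy 2.4.6, pandas 2.3.3 and matplotlib 3.10.9 were used, and counting was tested on simulated data.

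With 1 group no test was made, and counts stand beside those of all genes or summits unless stated otherwise. The shares over all TSS and over summits in windows of long genes were added after the data were seen. The members, lists and motifs were chosen with earlier results of these data known. All members were named with every optimal summit (or, with none, the highest relaxed one), together with other genes starting within 500 bp of such a summit, pathway genes with an optimal promoter summit, and the 3 genes most like the member with the highest summit. Oatp74D, Smr, shd, trr, Dronc, Ddc and Hr51 were named after their values were seen. Sequences are of the highest summit per gene, and none is shown for EcR, usp, Hr3 and Hr39. Alternatives were other window, promoter, matching and motif lengths, the higher-ranked part of each list (1877 of the optimal peaks), and leaving out each replicate.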

Additional observations from a re-analysis of the deposited data

How the results depend on the processing

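The count of 9 regulators with an optimal summit lay between 5 and 7 when a replicate was left out, because a match was then required in both others. Taking only the higher-ranked part of each list (1877 of the optimal peaks) removes peaks by construction. It left 4 regulators with an optimal summit, 15 summits at 2.49 per 100 kb, 1 promoter summit, 1 regulator with a summit at its own promoter and 134 pooled relaxed summits, with 14 summits intronic. Leaving out a replicate left 19 to 22 summits, of which 15 to 17 were intronic. No share of all protein-coding genes is given under these filters, so the counts of regulators are not set against other genes. With no extension of the gene bodies there were 26 summits, and with 5 kb there were 31. Of 76 further values for single genes and motifs, 55 stayed within 1.5 times and 21 did not, among them those of usp, Eip74EF, br and ftz-f1 given above. No paired analysis was possible because all samples belong to 1 group. Depth is unknown, and a relaxed peak missing from a replicate may be missing for depth alone, which was not tested.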
